A study of Drosophila melanogaster with 6 samples.

Results

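Insects seal wounds and trap microbes with a blood reaction that has an enzymatic and a structural arm. Prophenoloxidases are copper enzymes held as inactive precursors, cut into active form by a cascade of clip-domain serine proteases, and they oxidise catechols to quinones that polymerise into melanin. Dopachrome conversion enzymes of the yellow family speed a later step of that chain, while clot proteins are cross-linked by transglutaminase into a mesh that the melanin hardens. The genes described here are 9 listed members of this reaction in Drosophila melanogaster: the phenoloxidase genes PPO1, PPO2 and PPO3, the protease genes Sp7 and MP1, the dopachrome conversion genes yellow-f and yellow-f2, and the clotting genes fon and Tg. They are a named list, drawn up when earlier results of these data were known. Of the 9, 8 were found by symbol among the 17558 identifiers of the deposited gene table, and all 8 passed the filter on low values that left 12326 genes for testing. No row carried the identifier that the annotation pairs with PPO1.

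The libraries came from adult males 12 h after they were injected with Micrococcus luteus, a Gram-positive bacterium. In the 3 overexpressing libraries the strain was Gal80ts; Tub> NANPI, in which the tubulin driver, held by a temperature-sensitive Gal80 repressor, directed the long noncoding RNA CR33942, also called NANPI. The 3 control libraries had the strain Gal80ts; Tub-Gal4/P{CaryP}attP40, with the same kind of driver over an empty landing site. Strain background and overexpression therefore differ together. All 6 libraries were from injected flies, so no value here shows what infection itself did. The labels give no fly age, number of flies per library or temperature shift, and do not tie libraries to separate pools of flies. The p-values therefore cover the spread among these 6 libraries, which may be technical.

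Values are FPKM, fragments scaled by gene length and library size, which put genes of different length on one scale. Reads recovered from these values came to between 16534089 and 18824562 in the overexpressing libraries and between 16194212 and 18195092 in the control libraries, leaving out 2 genes whose reads could not be recovered. lncRNA:CR33942 (FBgn0062961) stood at 553, 589 and 563 FPKM in the overexpressing libraries and at 18.7, 19.5 and 19.0 FPKM in the control libraries, as the labels state (log2 change 4.83 ± 0.05 SE, limma adjusted p = 5.74e-09). Some genes of male reproductive tissue and the eye were abundant: Mst84Db, a male germline gene, averaged 715 ± 50.9 and 724 ± 34.6 FPKM, and ninaE, the main rhodopsin gene, 1688 ± 109 and 1574 ± 29.7 FPKM in overexpressing and control libraries (SD, n = 3 each). Mst84Da, another male germline gene, was below 1 FPKM throughout. Among 7 tested markers of a whole male fly, neither limma nor voom called any. Of the 7, 0 had an unadjusted p under 0.05, where 15.7% of all tested genes did. On the second principal component (19.9% of the variance) overexpressing replicate 2 stood at 17.1, against -8.12 and -6.63 for the other overexpressing libraries. The marker and pathway lists, chosen with earlier results of these data known, together name 76 genes, not all of which were tested. Without that library limma called 13 of them, against 7 with all 6 libraries. Over all tested genes it called 3.72% without that library, against 2.22% with all 6. Each list count that moved is given both ways.

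None of the 8 members passed the test. Limma called 0 of 8 at an adjusted p of 0.05, against 2.22% of all 12326 tested genes (0.844% higher and 1.38% lower). An unadjusted p under 0.05 was reached by 2, Sp7 on the higher side and yellow-f2 on the lower, where 15.7% of all tested genes reached it. The median log2 change of the 8 was -0.02, beside 0.00 over all tested genes. Voom on recovered reads called 0 of the 8 higher and 1 lower, yellow-f2, where it called 3.73% of all genes (1.26% higher and 2.47% lower). The groups did not overlap for 1 of the 8, again yellow-f2 and lower, where they did not overlap for 20.7% of all tested genes (9.06% higher and 11.7% lower). Counts of 0 to 2 among 8 genes are close to these shares.

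**Figure D1:**
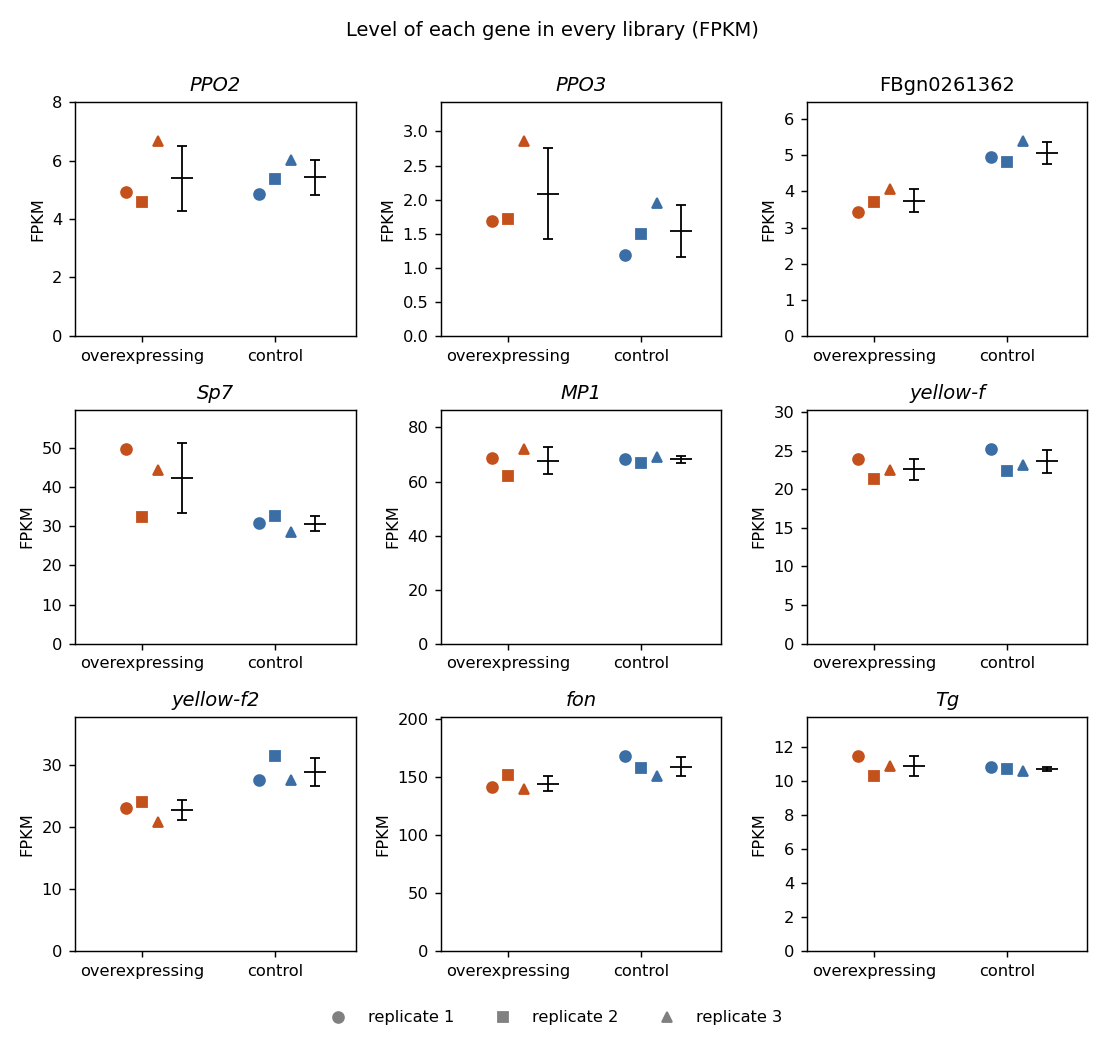
FPKM of each gene in every library, with overexpressing libraries left of control libraries, marker shape for the replicate number and bars for the mean ± SD of 3 libraries. Only yellow-f2 and the unnamed identifier FBgn0261362 have groups that do not overlap, both lower in the overexpressing libraries, and Sp7 has its overexpressing replicate 2 at 32.4 FPKM, among the control values.

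The members covered a wide range of levels. fon was the most abundant, with a mean of 151.6 FPKM over the 6 libraries, at percentile 95.1 of tested genes. MP1 followed at 67.9 FPKM, Sp7 at 36.5, yellow-f2 at 25.7, yellow-f at 23.1, Tg at 10.8, PPO2 at 5.41 and PPO3 at 1.82 FPKM, the last at percentile 8.7. The ranges over 6 libraries were apart between neighbours in this order except between Sp7 and yellow-f2 and between yellow-f2 and yellow-f, whose ranges overlapped. The read numbers behind these levels differed as widely: fon had between 5690 and 7351 recovered reads per library and PPO3 between 51 and 114.

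The phenoloxidase genes lie on chromosome 2R. PPO2 (FBgn0033367, 9042261 to 9044709, minus strand) and PPO3 (FBgn0261363, 23064769 to 23067183, plus strand) each have 1 annotated transcript of 4 exons in dm6. PPO2 is made by crystal cells, the blood cells that store phenoloxidase, and PPO3 is known from lamellocytes, the flat blood cells that encapsulate parasites. PPO2 stood at 4.91, 4.59 and 6.67 FPKM in the overexpressing libraries and at 4.86, 5.39 and 6.03 FPKM in the control libraries. The groups overlapped over nearly their whole range, and both extremes fell in overexpressing libraries. The log2 change of PPO2, overexpressing over control, was -0.02 (95% interval -0.33 to 0.29, limma adjusted p = 0.971).

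PPO3 stood at 1.68, 1.72 and 2.86 FPKM in the overexpressing libraries and at 1.19, 1.50 and 1.95 FPKM in the control libraries. Overexpressing replicate 3 was above every other library, while overexpressing replicates 1 and 2 lay within the control range. The log2 change was 0.27 (95% interval -0.15 to 0.69, limma adjusted p = 0.541) and came down to 0.10 without overexpressing replicate 3 (adjusted p = 0.844). On the FPKM scale, without the pseudocount of 1 that shrinks the change of low genes, the ratio of means was 1.35. Counting error alone was 10.6% of the mean read number per overexpressing library, against a spread between those libraries of 32.1%.

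The table holds 1 further identifier that bears on this family, FBgn0261362, to which the annotation used here gives no symbol. It gave whole reads at a length of 2338 nt, and PPO1 (2R, 17887220 to 17889973, minus strand) is the only annotated gene that the table lacks with an exon length of 2338 nt. The name was not assigned, and the identifier is left out of the counts above. FBgn0261362 stood at 3.44, 3.71 and 4.07 FPKM in the overexpressing libraries and at 4.96, 4.8 and 5.40 FPKM in the control libraries. Each overexpressing library was below each control library. Its log2 change of -0.35 (95% interval -0.55 to -0.16) was not past the threshold by limma (adjusted p = 0.0958) or by voom (adjusted p = 0.0588). Summed recovered reads were 507 and 659 in the overexpressing and control libraries.

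FBgn0261362 was also set beside PPO2 within each library. The difference in log2(FPKM + 1), FBgn0261362 minus PPO2, was -0.41, -0.25 and -0.60 in the overexpressing libraries and 0.02, -0.14 and -0.14 in the control libraries. The groups did not overlap, with a difference of -0.34 between their means (exact two-sided permutation p = 0.1, the smallest that 3 against 3 libraries allow; 0.2 adjusted over the 4 within-library pairs compared). Of the summed FPKM of PPO2, PPO3 and FBgn0261362, PPO3 made up 16.8%, 17.2% and 21.0% in the overexpressing libraries and 10.8%, 12.8% and 14.6% in the control libraries. FBgn0261362 made up 34.3%, 37.0% and 29.9% in the overexpressing libraries and 45.1%, 41.1% and 40.3% in the control libraries, the widest difference of the 3. PPO2 took 45.8% to 49.1% of it in the overexpressing libraries and 44.1% to 46.1% in the control libraries. The 3 shares sum to the whole, so each moves with the others. They were computed after the values were seen and were not tested.

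In whole flies, fewer cells of a type and less RNA per cell cannot be told apart, so blood cell markers are given beside these genes. Of the 2 crystal cell markers, lz, the Runx factor that specifies these cells, was at 1.56, 1.57 and 1.40 FPKM in the overexpressing libraries and at 0.824, 0.708 and 0.691 FPKM in the control libraries. That is a 2.04-fold ratio of means with no overlap. All control libraries were below 1 FPKM, so lz passed the filter only through the group where it was higher, and its adjusted p after the filter (0.0655 by limma, 0.00748 by voom) is given as a description. With no filter on low values the limma adjusted p was 0.0379 (log2 change 0.53). Limma called lz in 0 of the 6 fits with 1 library left out (adjusted p between 0.119 and 0.192). It did not call lz with replicate number as a block either (adjusted p = 0.177). peb, a zinc finger factor of crystal cells that other tissues also express, averaged 6.90 ± 0.838 FPKM in overexpressing and 8.33 ± 0.0415 FPKM in control libraries (SD, n = 3 each), with no overlap on the lower side (limma adjusted p = 0.221). The summed level of lz and peb ranged from 7.73 to 9.42 FPKM in the overexpressing libraries and from 9.04 to 9.11 FPKM in the control libraries.

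Of 10 tested plasmatocyte markers limma called 0 higher and 1 lower, with a median log2 change of -0.12. Over all tested genes it called 0.844% higher and 1.38% lower. The gene that fell was NimC1, a phagocytosis receptor gene, at 3.16 ± 0.180 FPKM in overexpressing libraries and 4.93 ± 0.198 FPKM in control libraries (SD, n = 3 each; limma adjusted p = 0.0207). Of the 6 fits without a library, NimC1 passed only in the one lacking overexpressing replicate 2 (adjusted p = 0.033, and up to 0.0922 in the others). The summed level of the 11 plasmatocyte markers in the table was 155 to 176 FPKM in overexpressing libraries and 174 to 186 FPKM in control libraries, and He was below 1 FPKM throughout. Limma and voom each called 0 of 4 tested lamellocyte markers. An unadjusted p under 0.05 was reached by 1 of the 4, and by 15.7% of all tested genes. The summed level of the 5 in the table was 189 to 195 FPKM in overexpressing and 191 to 199 FPKM in control libraries. Most of that sum was atilla, a surface protein gene of lamellocytes, so the sum largely follows 1 gene. In overexpressing and control libraries atilla was at 150.8 ± 3.74 and 157 ± 2.03 FPKM (SD, n = 3 each). msn, a kinase gene, was at 18.8 ± 0.741 and 17.2 ± 1.42 FPKM. ItgaPS4, another of the 5, was below 1 FPKM throughout, while atilla was at percentile 95.1 of tested genes. Whole-fly RNA does not tell which cells made these transcripts, so the sum is no measure of lamellocytes. The part of blood cell numbers in the phenoloxidase levels was not tested.

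Neither protease gene of the set passed the test. Sp7 (FBgn0037515, chromosome 3R, 7759786 to 7763947, plus strand, 6 exons) encodes a clip-domain protease needed for phenoloxidase activation in wounded flies. Sp7 stood at 49.9, 32.4 and 44.5 FPKM in the overexpressing libraries and at 30.9, 32.6 and 28.6 FPKM in the control libraries. Overexpressing replicates 1 and 3 were above every control library, and overexpressing replicate 2 lay inside the control range. The means were 42.2 ± 8.96 and 30.7 ± 2.02 FPKM (SD, n = 3 each), a ratio of 1.38. The log2 change was 0.43 (95% interval 0.09 to 0.76), which did not pass by limma over all genes (adjusted p = 0.211) or by voom (adjusted p = 0.104).

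The Sp7 result turned on 1 library. Without overexpressing replicate 2 the log2 change was 0.60 and passed (limma adjusted p = 0.0112), the 1 member called in a fit that called 3.72% of all tested genes (1.65% higher and 2.08% lower). Without overexpressing replicate 1 it was 0.30 (adjusted p = 0.408), and in the other fits without 1 library the adjusted p was between 0.322 and 0.414. Sp7 spread by 21.2% of the mean among the overexpressing libraries and by 6.57% among the control libraries, against average counting errors of 2.47% and 2.96%.

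MP1 (FBgn0027930, 3R, 4307908 to 4309835, plus strand, 4 exons), the gene of another clip-domain protease of the melanization cascade, stood at 68.7, 62.2 and 72.2 FPKM in the overexpressing libraries and at 68.4, 66.9 and 69.2 FPKM in the control libraries. The control libraries all lay inside the overexpressing range. The log2 change was -0.01 (95% interval -0.16 to 0.14, limma adjusted p = 0.958). Its 1525 annotated exon bases all overlap exons of Vps24 on the opposite strand, which stood at 43.2 to 49.1 FPKM in overexpressing libraries and 41.5 to 45.8 FPKM in control libraries. No source used here says whether strand was used in counting, so it is not known whether reads of Vps24 count toward MP1. MP1 gave whole reads at a solved length of 1495 nt, so its overlap in the annotation used for counting may differ. The within-library difference Sp7 minus MP1 in log2(FPKM + 1) was -0.45, -0.92 and -0.69 in the overexpressing libraries and -1.12, -1.02 and -1.25 in the control libraries. On this measure the groups did not overlap, overexpressing replicate 2 included, with a difference of 0.44 between the means (two-sided exact permutation p = 0.1, with none smaller possible; adjusted 0.2).

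**Figure D2:**
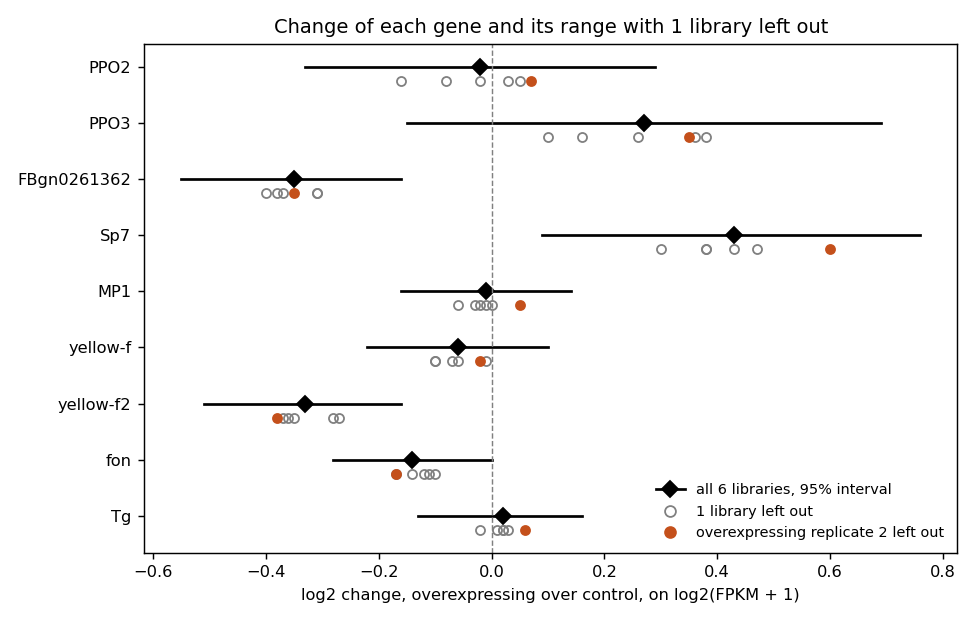
Log2 change of each gene, overexpressing over control, on the log2(FPKM + 1) scale, with diamonds and lines for the estimate and 95% interval from all 6 libraries and circles for the estimates with 1 library left out. Sp7 moves from 0.43 to 0.60 without overexpressing replicate 2 (filled circle), while yellow-f2 stays between -0.38 and -0.27.

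Among the other proteases and serpins of the cascade, limma called 0 of 12 tested genes and voom 1 higher and 1 lower, while 3 had an unadjusted p under 0.05. The shares of all tested genes were 2.22% by limma, 3.73% by voom and 15.7% with an unadjusted p under 0.05. Without overexpressing replicate 2 limma called 3 higher and 0 lower: nec, Spn28Dc and Spn77Ba. That fit called 1.65% of all tested genes higher and 2.08% lower. With all libraries, the median log2 change of the 12 tested genes was 0.03. SPE, the protease that cuts the Toll ligand Spätzle, stood at 255, 257 and 281 FPKM in the overexpressing libraries and at 328, 312 and 329 FPKM in the control libraries, with no overlap (log2 change -0.29 ± 0.06 SE, limma adjusted p = 0.0507, voom adjusted p = 0.0163). nec, a serpin gene that restrains Toll activation, stood at 242, 179 and 254 FPKM in the overexpressing libraries and at 199, 208 and 206 FPKM in the control libraries. For nec, overexpressing replicate 2 was below, and overexpressing replicates 1 and 3 above, every control library. The log2 change of nec was 0.12 ± 0.12 (SE; limma adjusted p = 0.711), or 0.28 without overexpressing replicate 2, where it passed (adjusted p = 0.0398).

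Spn28Dc, a serpin gene reported to limit melanization and chosen here after its values were seen, had the largest difference of this list. Spn28Dc stood at 95.1, 44.9 and 80.5 FPKM in the overexpressing libraries and at 30.2, 32.4 and 27.7 FPKM in the control libraries. The groups did not overlap, and overexpressing replicate 2 was again the closest to the controls. Its log2 change was 1.20 ± 0.24 (SE), which just missed the threshold by limma (adjusted p = 0.0559), and passed by voom (adjusted p = 0.00881) and by limma without overexpressing replicate 2 (log2 change 1.51, adjusted p = 0.000809). Spn77Ba, a serpin gene of melanization in the airways and likewise chosen after its values were seen, stood at 52.4, 46.0 and 51.2 FPKM in the overexpressing libraries and at 43.4, 41.5 and 40.5 FPKM in the control libraries. Its groups did not overlap, with a log2 change of 0.25 (limma adjusted p = 0.116), or 0.30 without overexpressing replicate 2 (adjusted p = 0.0349). Overexpressing replicate 2 was the lowest overexpressing library for 9 of the 12 tested genes (75.0%), where the same held for 37.5% of all tested genes, as was counted after the values were seen. It was the highest for 1 of the 12, and for 36.6% of all tested genes. Other lists differed from all genes too: it was the lowest for 4 of 6 tested other yellow genes and the highest for 6 of 8 tested clot and haemolymph proteins. It was not the lowest for SPE, and for psh, a protease gene upstream of SPE, it was the highest, at 12.8 FPKM against 11.2 FPKM in each of the other two.

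The enzymes that supply and process catechols, the substrates of phenoloxidase, included genes that passed the test in each direction. Among the 7 tested, 2 rose and 1 fell by limma, voom called 4 higher and 1 lower, and all 7 had an unadjusted p under 0.05. Over all tested genes limma called 2.22% and voom 3.73%, and 15.7% had an unadjusted p under 0.05. This list was chosen with earlier results of these data known. Their median log2 change was 0.28. Without overexpressing replicate 2 limma called 3 higher and 1 lower, against 1.65% higher and 2.08% lower over all tested genes. The gene added was e, which encodes the enzyme that joins dopamine to beta-alanine (log2 change 0.28 with all libraries, limma adjusted p = 0.22, and 0.38 without that library, adjusted p = 0.0292). Ddc, which encodes dopa decarboxylase, rose to 135, 53.4 and 112 FPKM in the overexpressing libraries, against 21.5, 30.7 and 22.5 FPKM in the control libraries (log2 change 1.88 ± 0.32 SE, limma adjusted p = 0.0295). Overexpressing replicate 2 was the lowest of the overexpressing libraries for Ddc too, as it was for Sp7 and Spn28Dc. The Ddc call held without overexpressing replicate 2 (adjusted p = 0.00122) and was lost without any other library (adjusted p up to 0.113) and with no filter on low values.

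Pu, which encodes GTP cyclohydrolase, the first enzyme of tetrahydrobiopterin synthesis, rose to 168, 143 and 173 FPKM, against 90.2, 95.2 and 65.9 FPKM in the control libraries (log2 change 0.95 ± 0.14 SE, limma adjusted p = 0.019). All overexpressing libraries were above all control libraries. The call held without control replicate 2 (0.0463) or 3 (0.026) or overexpressing replicate 2 (0.0136), and was lost in the fits lacking control replicate 1, overexpressing replicate 1 or overexpressing replicate 3, where adjusted p reached 0.0737. Hn, which encodes phenylalanine hydroxylase, the source of tyrosine, went the other way and fell to 60.1, 69.1 and 61.3 FPKM, against 89.4, 89.6 and 80.1 FPKM in the control libraries (log2 change -0.44 ± 0.07 SE, limma adjusted p = 0.0293). Here overexpressing replicate 2 was the highest of its group and stood nearest the controls. In this list it was the lowest of its group for 4 of 7 tested genes and the highest for 1. For t, overexpressing replicate 3 stood nearest the controls (36.3 FPKM, against 40.6 in replicate 2), and for b, overexpressing replicate 1 (56.3 FPKM, against 58.2 in replicate 2). How this library differs was not tested. The Hn call held without control replicate 3 (0.0492) or overexpressing replicate 2 (0.0113) and was lost without the others (adjusted p up to 0.114).

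**Figure D3:**
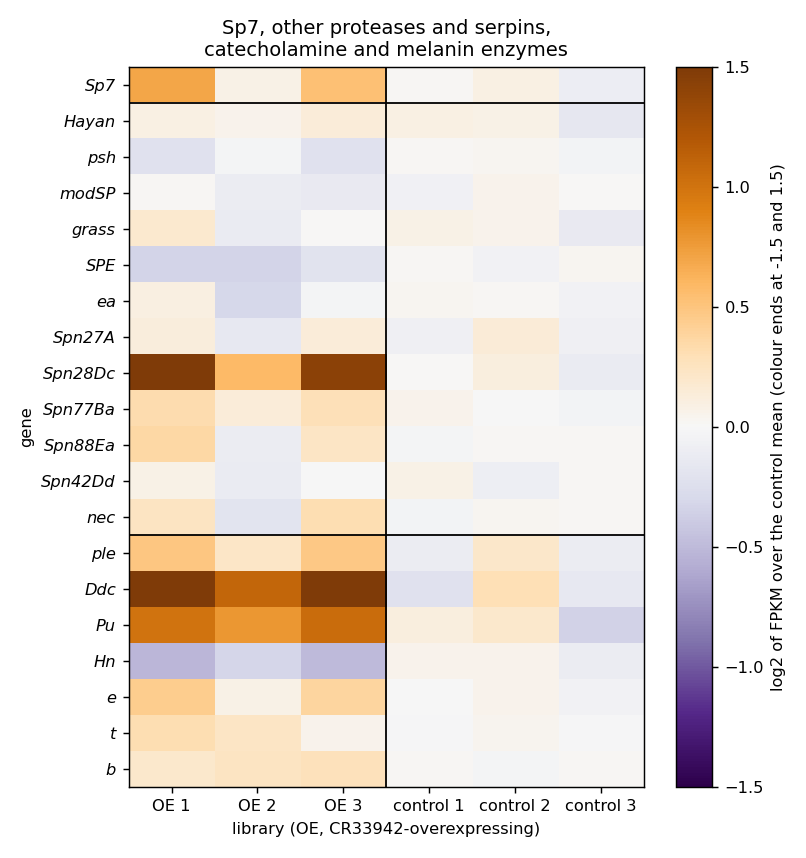
Level of Sp7 and of the tested proteases, serpins, catecholamine and melanin enzymes in every library, as log2 of FPKM over the control mean, with overexpressing libraries on the left and colours capped at the ends of the scale. As a multiple of the control mean, Sp7 was at 1.62, 1.05 and 1.45 in overexpressing replicates 1, 2 and 3, Spn28Dc at 3.16, 1.49 and 2.68, and Ddc at 5.43, 2.14 and 4.51.

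The dopachrome conversion genes are neighbours in tandem on the minus strand of 3R. yellow-f (FBgn0041710, 12991449 to 12993201) and yellow-f2 (FBgn0038105, 12993395 to 12995147) each have 4 exons and are 193 bases apart. yellow-f2 stood at 23.1, 24.0 and 20.9 FPKM in the overexpressing libraries and at 27.6, 31.3 and 27.5 FPKM in the control libraries. Each overexpressing library was below each control library, as it was for 11.7% of all tested genes. The means were 22.6 ± 1.6 and 28.8 ± 2.19 FPKM (SD, n = 3 each), a ratio of 0.785. A log2 change of -0.33 (95% interval -0.51 to -0.16) did not pass by limma (adjusted p = 0.0825) and passed by voom on recovered reads (log2 change -0.35, adjusted p = 0.0386). Without 1 library it ranged from -0.38 to -0.27, and limma called it in 0 of those 6 fits (adjusted p between 0.0611 and 0.21).

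yellow-f, next to it, stood at 24.0, 21.3 and 22.5 FPKM in the overexpressing libraries and at 25.3, 22.4 and 23.2 FPKM in the control libraries. These groups overlapped, with a log2 change of -0.06 (95% interval -0.22 to 0.10, limma adjusted p = 0.74). It shares 95 exon bases with CG31342 on the opposite strand, which stood at 9.44 to 10.04 FPKM in overexpressing libraries and 8.80 to 9.41 FPKM in control libraries. The within-library difference yellow-f minus yellow-f2 in log2(FPKM + 1) was 0.05, -0.16 and 0.10 in the overexpressing libraries and -0.12, -0.47 and -0.24 in the control libraries. These groups overlapped, by overexpressing replicate 2 and control replicate 1, and the difference of 0.27 between their means had an exact two-sided permutation p of 0.2 (adjusted 0.2). With 3 against 3 libraries the smallest possible p is 0.1, so no outcome of this test could have passed 0.05.

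The remaining yellow genes, a family named for the cuticle pigment gene y, gave no call. The filter left 6 of the 12 listed, and neither limma nor voom called any of these. Of the 6, 0 had an unadjusted p under 0.05, where 15.7% of all tested genes did. Their median log2 change was 0.03. yellow-d was at 26.1 ± 2.73 and 27.3 ± 3.24 FPKM and yellow-c at 22.5 ± 2.34 and 22.7 ± 3.86 FPKM in overexpressing and control libraries (SD, n = 3 each). The 6 tested genes had log2 changes on both sides of 0, with 4 above and 2 below.

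The clotting genes overlapped between the groups. fon (FBgn0032773, 2L, 19383138 to 19386205, minus strand, 5 exons) encodes fondue, a clot protein that transglutaminase cross-links. fon stood at 141, 152 and 139.8 FPKM in the overexpressing libraries and at 168, 157 and 151 FPKM in the control libraries. The groups met at their edges: overexpressing replicate 2 was just above control replicate 3. For fon the log2 change was -0.14 (95% interval -0.28 to 0.00, limma adjusted p = 0.33), and it stayed between -0.17 and -0.10 with 1 library left out. With 19149 and 20237 recovered reads summed over overexpressing and control libraries, counting error averaged 1.25% and 1.22% of the read number per library, below the spreads of 4.51% and 5.31%.

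Tg (FBgn0031975, 2L, 8011405 to 8026898, plus strand, 4 exons), the transglutaminase gene, stood at 11.5, 10.3 and 10.9 FPKM in the overexpressing libraries and at 10.9, 10.7 and 10.6 FPKM in the control libraries. The control libraries lay inside the overexpressing range, and Tg had the narrowest control spread of the 8, 1.07%, below its counting error of 4.0%. The log2 change was 0.02 (95% interval -0.13 to 0.16, limma adjusted p = 0.925). The within-library difference fon minus Tg in log2(FPKM + 1) was 3.51, 3.76 and 3.56 in the overexpressing libraries and 3.83, 3.76 and 3.71 in the control libraries. Overexpressing replicate 2 stood among the controls, and the difference of -0.16 between the means had an exact two-sided permutation p of 0.2 (adjusted 0.2).

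Among 8 tested clot and haemolymph proteins other than fon and Tg, limma called 0 higher and 1 lower, and the median log2 change was -0.10. Over all tested genes limma called 0.844% higher and 1.38% lower. fat-spondin, a secreted protein gene of the fat body, the insect's liver-like organ, fell to 25.04, 25.3 and 23.9 FPKM, against 34.5, 35.9 and 33.8 FPKM in the control libraries (log2 change -0.47 ± 0.05 SE, limma adjusted p = 0.00668). It passed in all 6 fits with 1 library left out (adjusted p up to 0.0414). Hemolectin, the main clot protein of plasmatocytes and encoded by Hml, had a log2 change of 0.01 ± 0.09 (SE; limma adjusted p = 0.984). Lsp1alpha and Eig71Ee were below 1 FPKM throughout. Without overexpressing replicate 2 limma called 1 higher and 2 lower in this list, adding Idgf3 and apolpp, both chosen after their values were seen. That fit called 1.65% of all tested genes higher and 2.08% lower. Idgf3, a chitinase-like growth factor gene, stood at 100.07, 76.5 and 99.9 FPKM in the overexpressing libraries and at 84.6, 80.8 and 79.3 FPKM in the control libraries (log2 change 0.16, limma adjusted p = 0.517; 0.29 without that library, adjusted p = 0.0326). apolpp, the gene of the main lipoprotein of haemolymph, stood at 65.3, 93.4 and 59.8 FPKM in the overexpressing libraries and at 129.8, 91.5 and 98.025 FPKM in the control libraries (log2 change -0.55, limma adjusted p = 0.205; -0.74 without that library, adjusted p = 0.0379). In both genes overexpressing replicate 2 stood on the side of the controls.

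Fat body markers, given here because that organ secretes haemolymph proteins, were lower in sum in the overexpressing libraries. This list shares apolpp, fat-spondin, Lsp2 and Fbp1 with the clot and haemolymph list, so it is not a separate set of genes. It was also chosen with earlier results of these data known, so its counts and sums are a description. Of 7 tested markers limma called 0 higher and 3 lower, with 6 below 0 and a median log2 change of -0.36, while voom called 4 lower, as did limma without overexpressing replicate 2. Over all tested genes limma called 1.38% lower, voom 2.47% and limma without that library 2.08%. Desat1, a fatty acid desaturase gene, fell to 599 ± 4.74 FPKM in overexpressing libraries, against 769 ± 25.8 FPKM in control libraries, and Lst, the gene of limostatin, a hormone known from the endocrine corpora cardiaca, to 40.6 ± 1.77 FPKM, against 51.1 ± 2.85 FPKM (SD, n = 3 each; limma adjusted p = 0.0172 and 0.0443). The third was fat-spondin. Desat1 kept its call without control replicate 3 (0.0429) or overexpressing replicate 2 (0.0164) and lost it without the others (up to 0.080), and Lst lost its call without each library (up to 0.151) and with no filter on low values. With Lst left out of the list, a choice made after seeing the data, limma called 2 of 6 lower, with a median log2 change of -0.38. Pect, the gene of a phospholipid synthesis enzyme, was at 98.6 ± 3.11 FPKM in overexpressing and 98.2 ± 4.69 FPKM in control libraries (SD, n = 3 each; log2 change 0.01, limma adjusted p = 0.977). The summed level of the 8 markers in the table was 826 to 874 FPKM in overexpressing libraries and 1042 to 1120.0 FPKM in control libraries, and none was at 0. Desat1 made up most of it: without Desat1 and Lst the sum was 188 to 231 FPKM in overexpressing libraries and 236 to 277 FPKM in control libraries, still with no overlap. Their part in the fon level was not tested.

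**Figure D4:**
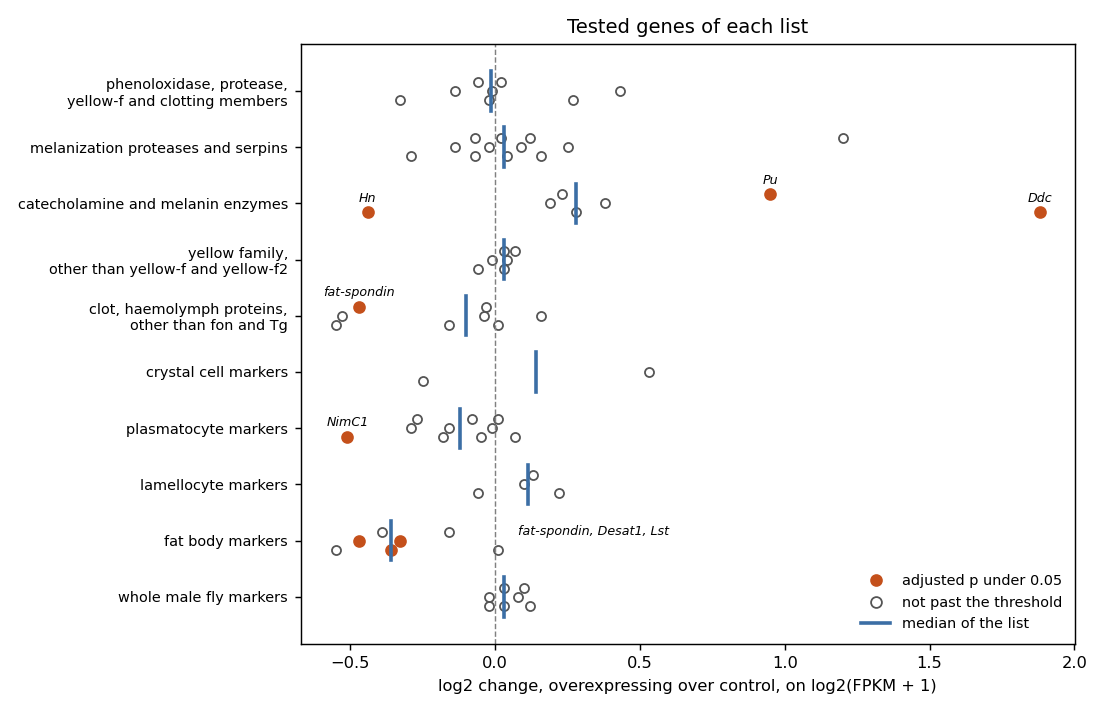
Log2 change, overexpressing over control, of every tested gene in each list, with filled circles for genes past a limma adjusted p of 0.05 and a vertical bar for the list's median. None of the 8 members is filled, while Ddc and Pu lie to the right and Hn, NimC1, fat-spondin, Desat1 and Lst to the left.

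The genes whose levels ran most like those of the members were found by the root mean square difference between centred log2(FPKM + 1) profiles over the 6 libraries, for the most abundant member of each role. For fon they were Agpat3 and CG7639, at 0.019 each. For MP1 they were CG9018 at 0.018 and prel at 0.022. For yellow-f2 they were CG3301 at 0.046 and Prosalpha1R at 0.048, and for PPO2 Nse4 at 0.037 and betaNACtes5 at 0.045. Agpat3 ran at 48.2, 51.7 and 48.4 FPKM in the overexpressing libraries and at 59.3, 55.4 and 52.4 FPKM in the control libraries, highest in control replicate 1 as fon was. None of these 8 genes passed the limma test (adjusted p between 0.101 and 0.988). They were picked to match members that did not pass, so this outcome was largely set by the choice.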

How the data were processed

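RNA was measured in 6 poly(A) RNA-seq libraries, 3 per group. Per the labels' protocols, HISAT2 2.0.5 aligned the read pairs and featureCounts 1.5.0-p3 assigned them to genes. The submitters' processing notes name dm6 as the build. The authors deposited 1 FPKM value per gene and library; their step from counts to FPKM, and any use of strand, are not given in the sources used here. Symbols and coordinates come from the Ensembl annotation of BDGP6 (dm6 coordinates), which paired 17252 of 17558 identifiers.

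FPKM multiplied by exon length and 1 factor per library gave whole reads (tolerance 0.01 of a read) for 15276 of 15918 genes above 0, or 96.0%. For 640 others, Sp7 and MP1 among them, a length was solved, so wholeness is no check there. Intervals and counting errors are separate: counting errors cover reads only.

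Groups were compared with limma 3.58.1 in R 4.3.3 (lmFit, eBayes with a trend) on log2(FPKM + 1), for genes that reached 1 FPKM in 3 or more libraries, two-sided, Benjamini-Hochberg over all 12326 genes, threshold 0.05. Within-library pairs were tested by exact permutation. Alternatives were a pseudocount of 0.1, no filter, median rescaling, voom on recovered reads, replicate number as a block, and leaving out each library. FBgn0261362 minus PPO2 replaced the planned PPO1 pair after the table was seen. The test was checked on simulated data.

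Members and the 9 lists were chosen with earlier results of these data known. Named genes were the members, CR33942, per list up to 4 called genes or else the 2 most abundant, and the 2 nearest profiles per role; others are said to be chosen after their values were seen. Hml, psh, Pect, e, t, b, Lsp2, Fbp1 and the genes below 1 FPKM are also outside that rule. No sequence is shown, as no sequence table was used here.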

Additional observations from a re-analysis of the deposited data

How the results depend on the processing

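The count of all genes called was 274, 460 by voom on recovered reads, 110 with replicate number as a block, and 72 to 459 with 1 library left out, highest without overexpressing replicate 2. The count of members called was 0 of 8, 1 by voom (yellow-f2), 0 with the block, and 0 to 1 with 1 library left out (Sp7, without overexpressing replicate 2). Counting FBgn0261362 with them left it at 0. The lists together name 76 genes, not all of them tested. Of these, 7 were called, 13 by voom, 1 with the block (fat-spondin), and 1 to 13 with 1 library left out. The 13 by voom include lz, which passed the filter only through the group where it was higher. A pseudocount of 0.1, no filter and median rescaling kept the counts of all genes and of listed genes within 1.5 times, and the count of members at 0. Same-numbered libraries did not deviate together (r over genes of -0.0528, -0.185 and 0.0327), so the labels' numbers are not taken as pairing. For the within-library pairs the block gives the same difference by construction.

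Near-zero changes reversed in 5 cases: PPO2 came to 0.05 where control replicate 3 was left out, to 0.03 where overexpressing replicate 1 was, and to 0.07 where overexpressing replicate 2 was. With 1 library left out PPO2 ranged from -0.16 to 0.07, MP1 from -0.06 to 0.05 (highest without overexpressing replicate 2) and Tg from -0.02 to 0.06 (lowest without overexpressing replicate 1). PPO3, Sp7, yellow-f, yellow-f2, fon and FBgn0261362 kept their direction under all 11 alternatives. With 1 library left out, the pair differences were -0.42 to -0.25 for FBgn0261362 minus PPO2, 0.32 to 0.56 for Sp7 minus MP1, 0.18 to 0.35 for yellow-f minus yellow-f2 and -0.23 to -0.11 for fon minus Tg. PPO3 rested on the fewest reads of the 8, 51 to 114 per library. The causes of these shifts were not tested.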
